A study of Mus musculus with 9 samples.

Results

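Pressure overload of the mouse heart was compared with sham surgery in animals that all carried a control virus. The comparison took in every gene of the deposited array table: 20239 named genes, of which 12597 were bright enough to be tested, on 3 arrays of hearts after transverse aortic constriction (TAC) and 3 arrays of sham hearts. It used 6 of the 9 arrays of the study. The remaining 3 came from TAC hearts that received another virus cargo, HDAC4-NT (amino acids 1 to 201 of the class II histone deacetylase HDAC4). They enter below only for the estimate of spread and as values set beside those of the other hearts.

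All animals were male C57BL/6 mice. They were injected with an adeno-associated virus at 8 weeks of age, were operated on 4 weeks later, and gave their hearts 4 weeks after the operation. In both groups compared here the virus carried luciferase, an enzyme with no role in the heart, behind an MLC (myosin light chain) promoter. The sham hearts are therefore virus-treated hearts too, and every group carried a virus. Each array held RNA of 1 whole heart, and each group had 3 animals. Where a transcript of a cell type was lower or higher, a change in the number of those cells and a change of RNA per cell cannot be told apart.

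In constriction of the aorta a band narrows the vessel, so that the left ventricle ejects against a raised pressure. The ventricle thickens over the following weeks. Muscle cells enlarge and return to genes of the fetal ventricle, fibroblasts turn to matrix production, and the balance of fuels moves away from fatty acids, the main fuel of the adult heart. Stretch is sensed at the Z-disc and the cell membrane. Transforming growth factor beta, angiotensin and endothelin are classical signals to the fibroblast.

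Expression values are given on the log2 scale, on which a difference of 1 is a doubling. The threshold for a call was a p of 0.05 from limma, fitted over all 9 arrays and adjusted by the method of Benjamini and Hochberg, and "rose" and "fell" are used of called genes only. The median standard error (SE) of a difference between the groups was 0.07. The cardiomyocyte markers had mean values of 12.65 to 12.71 in the sham hearts and 12.57 to 12.63 in the TAC hearts, and 1 of 14 rose (Mybpc3) and 4 fell (Myl3, Myh6, Nkx2-5 and Ckm; 2 without sham heart 2 or TAC heart 3, and 1 after cyclic loess scaling). Of the lymphocyte markers on the array, 4 of 15 were bright enough to be tested, of the skeletal muscle markers 7 of 13, and of the erythroid markers 3 of 4. The TAC hearts were not equally alike. In a principal component analysis of the 6 arrays, the first component, with 67.3% of the variance, parted TAC from sham, and the second, with 15.1%, set TAC heart 1 (-16.96) apart from TAC hearts 2 (8.18) and 3 (7.21). Over all genes tested, TAC heart 1 correlated at 0.9857 and 0.9867 with TAC hearts 2 and 3. With the HDAC4-NT hearts its correlations were higher, at 0.9914 to 0.9918, and the cause was not tested. Averaged over the atrial genes Mybphl, Sln, Myl7 and Myl4, the level was 6.43, 7.49 and 6.45 in the sham hearts and 5.98, 6.23 and 8.07 in the TAC hearts, so sham heart 2 and TAC heart 3 carried the most atrial transcript. Results that turn on 1 of these hearts are given with and without it.

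Of the 12597 genes tested, 3283 differed between TAC and sham hearts, or 26.1%. A rise was called for 1405 genes, or 11.2% of those tested, and a fall for 1878, or 14.9%. These are the shares against which the counts of gene groups below are to be read. Rises were larger than falls: 164 genes rose and 47 fell at least 2-fold, 46 rose and 2 fell at least 3-fold, and 17 rose and 1 fell at least 4-fold. For 4717 genes, or 37.4%, the 3 TAC hearts and the 3 sham hearts did not overlap. The called rises had median changes of 0.39, 0.43 and 0.42 from the sham mean in TAC hearts 1, 2 and 3, and the called falls medians of -0.34, -0.35 and -0.34. These values describe the calls and support nothing further, since the genes were called on the same hearts. Which direction held more calls depended on the scaling: rises made up 42.8% of the calls on the deposited values and 52.6% after cyclic loess scaling, which moved the median difference of all genes by 0.03. Values at the top of the scale are set by rank, since all 9 arrays hold the same sorted values, and differences there are compressed. At the other end, 161 tested genes had no sham heart above the filter value of 5.66, and 66 of them were called higher. They passed the filter through hearts other than the sham hearts. Likewise, 140 tested genes had no TAC luciferase heart above that value and passed through other hearts.

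**Figure D1:**
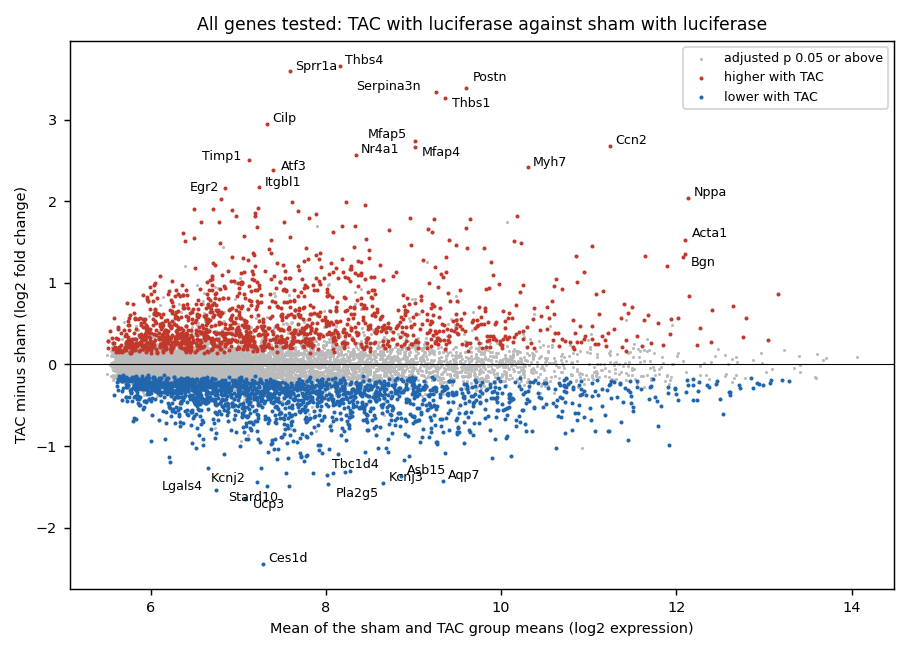
Each point is 1 of the 12597 genes tested; the horizontal axis gives the mean of the sham and TAC group means (log2 expression) and the vertical axis the difference TAC minus sham (log2), with called rises in red, called falls in blue and other genes in grey. The 1405 rises reach 3.66 and the 1878 falls reach -2.44, and most called falls lie within 1 log2 unit of 0.

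Matrix genes led the rises. Thrombospondin 4 (Thbs4), a secreted glycoprotein of stressed muscle and tendon, stood at 6.26, 6.33 and 6.38 in the sham hearts and at 9.89, 10.23 and 9.83 in the TAC hearts. Postn, which encodes periostin and marks activated fibroblasts, stood at 7.97, 7.86 and 7.89 against 11.15, 11.49 and 11.23. Cilp, a cartilage matrix protein also made by cardiac fibroblasts, stood at 5.62, 6.00 and 5.95 against 9.07, 8.70 and 8.64. In all 3 genes the hearts of a group lay close together and the groups were far apart. The differences were 3.66 (SE 0.16), 3.39 (SE 0.12) and 2.95 (SE 0.17), with adjusted p-values of 3.03e-06, 1.09e-06 and 1.13e-05. Ccn2, the connective tissue growth factor, stood at 9.65, 9.84 and 10.21 and reached 12.43, 12.63 and 12.68 (difference 2.68, SE 0.16). Sprr1a, a small proline-rich stress protein, was near the filter value in the sham hearts, at 5.62, 5.84 and 5.93, and at 10.37, 9.11 and 8.68 in the TAC hearts. TAC heart 1 was the highest, and its hearts varied more than those of the genes above, without overlap (difference 3.59, SE 0.37, adjusted p = 0.000195).

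Thrombospondin 1 (Thbs1), an activator of latent transforming growth factor beta, rose by a similar size but far less evenly. Its sham hearts gave 7.01, 6.91 and 9.23 and its TAC hearts 9.27, 11.95 and 11.75. Sham heart 3 thus came next to TAC heart 1, although the groups did not overlap. The difference of 3.27 had an SE of 0.77 (adjusted p = 0.0132), and the call was lost without sham heart 1 (adjusted p = 0.0534). Sham heart 3 was also the highest sham heart for Serpina3n, a serine protease inhibitor of the acute phase (7.05, 7.29 and 8.42, against 10.82, 11.30 and 10.65 with TAC), but there the groups stayed well apart, and the rise of 3.34 (SE 0.32) was called in each fit that left out 1 heart. Timp1, an inhibitor of matrix metalloproteinases, rose from 5.66, 5.71 and 6.24 to 8.15, 8.59 and 8.38.

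**Figure D2:**
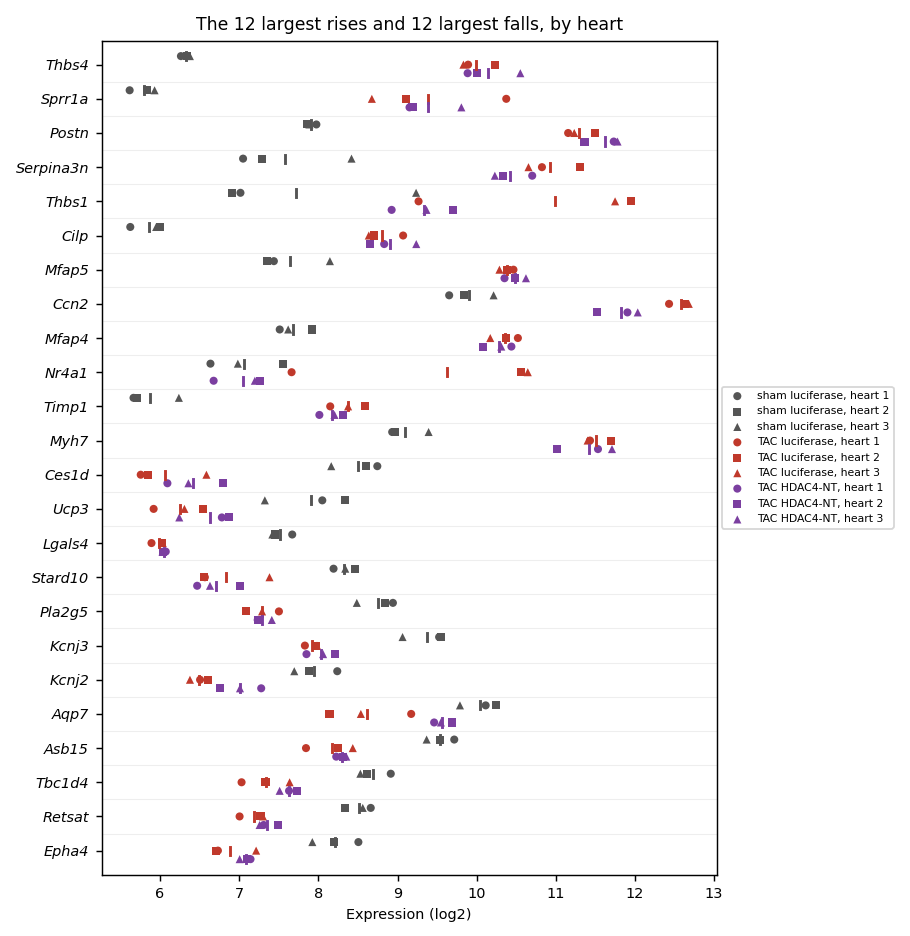
Expression (log2, horizontal axis) of the 12 genes with the largest rises and the 12 with the largest falls, 1 symbol per heart, with a short bar at each group's mean; sham hearts are grey, TAC luciferase hearts red and TAC HDAC4-NT hearts purple. Sham and TAC luciferase hearts do not overlap in any of the 24 genes, and the gap is smallest for Thbs1.

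Promoter sequence is shown for 4 genes that moved far, 3 up and 1 down, to set large changes beside the DNA before their start sites. The windows run from 250 bases before to 50 after the RefSeq start (GRCm38.p6), printed 5′ to 3′ in the direction of the gene. They are Sprr1a (chr3:92485832-92486131, minus strand), Thbs4 (chr13:92794769-92795068, minus strand), Acta1 (chr8:123894726-123895025, minus strand) and Retsat, a retinol saturase that fell by 1.33 (chr6:72598352-72598651, plus strand). Capitals mark matches on either strand. The motif of AP-1, the factor of Fos and Jun proteins, was searched as TGANTCA. That of the TEAD factors, which work with the stretch-responsive coactivators of the Hippo pathway, was searched as GGAATG. The promoter element known as the GC box was searched as GGGCGG and the element at which many promoters position the polymerase as TATAAA. The CArG box, where serum response factor binds, was searched by its usual consensus.
Sprr1a: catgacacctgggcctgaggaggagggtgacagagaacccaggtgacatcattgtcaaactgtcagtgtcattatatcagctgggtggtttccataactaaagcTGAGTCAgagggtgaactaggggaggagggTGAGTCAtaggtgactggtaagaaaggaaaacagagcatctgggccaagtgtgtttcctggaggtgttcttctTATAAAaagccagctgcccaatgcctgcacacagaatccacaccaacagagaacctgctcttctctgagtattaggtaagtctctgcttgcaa
Thbs4: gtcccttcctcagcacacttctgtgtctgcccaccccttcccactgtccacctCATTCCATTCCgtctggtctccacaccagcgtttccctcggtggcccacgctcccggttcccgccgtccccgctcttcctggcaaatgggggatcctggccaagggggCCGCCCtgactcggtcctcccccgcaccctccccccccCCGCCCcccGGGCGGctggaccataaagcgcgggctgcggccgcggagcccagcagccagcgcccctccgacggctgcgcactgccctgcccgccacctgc
Acta1: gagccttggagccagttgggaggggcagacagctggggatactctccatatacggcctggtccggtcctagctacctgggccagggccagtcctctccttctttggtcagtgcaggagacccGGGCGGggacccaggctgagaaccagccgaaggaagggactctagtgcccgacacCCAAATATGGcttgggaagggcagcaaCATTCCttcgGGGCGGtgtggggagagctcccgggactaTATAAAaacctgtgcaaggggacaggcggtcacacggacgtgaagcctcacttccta
Retsat: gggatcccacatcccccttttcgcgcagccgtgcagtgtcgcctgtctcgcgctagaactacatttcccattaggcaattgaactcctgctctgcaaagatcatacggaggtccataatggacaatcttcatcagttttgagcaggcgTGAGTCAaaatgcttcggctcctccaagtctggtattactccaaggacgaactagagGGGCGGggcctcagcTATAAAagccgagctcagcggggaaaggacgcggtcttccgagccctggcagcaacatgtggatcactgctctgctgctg
Sprr1a has 2 AP-1 matches and a TATA match, Thbs4 2 overlapping TEAD matches and 3 GC boxes, Acta1 a CArG box, a TEAD match, 2 GC boxes and a TATA match, and Retsat an AP-1, a GC box and a TATA match. The other motifs searched are not in these 4 windows. They were the cyclic AMP response element, as TGACGTCA, and the site of GATA factors, which are regulators of heart development, as AGATAA. The E-box of clock and growth regulators was searched as CACGTG, the site of estrogen-related receptors, which drive mitochondrial genes, as AAGGTCA, and the MEF2 box by its usual consensus. A window was listed for 15 of the 20 largest rises and 18 of the 20 largest falls. AP-1 was in 1 of the 15 and 1 of the 18, beside 6.51% of the 9930 tested genes with a window, and TEAD was in 5 and 3, beside 14.6%. A GC box was in 7 of the 15 and 8 of the 18, beside 67%. The cyclic AMP element was in none of either, beside 3.39%. Over all 12664 windows of tested genes, the share with a match was 5.42% for AP-1, 12.4% for TEAD, 60.5% for the GC box, 7.86% for TATA, 1.41% for the CArG box, 6.7% for GATA, 9.74% for the E-box, 2.86% for the cyclic AMP element, 3.36% for the estrogen-related receptor site and 1.85% for the MEF2 box. A match is a description of letters only, and none of these shares was tested.

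The matrix rise covered most classes of matrix protein. Of 131 tested genes in 6 matrix lists, 88 rose and 6 fell, with a median difference of 0.58, against 11.2% rises and a median of -0.01 over all genes tested. Of 24 collagen chains tested, 15 rose and none fell (median 0.62). Col8a1, a short-chain collagen, rose most, from 7.12, 7.32 and 7.27 to 9.27, 9.30 and 9.11 (difference 1.99, SE 0.07, adjusted p = 1.09e-06). The fibrillar chains Col1a1 (1.44), Col1a2 (1.27) and Col3a1 (1.01) rose together with the fibril-associated Col14a1 (1.32) and the basement membrane and microvascular chain Col15a1 (1.05). Enzymes that fold, trim and cross-link collagen followed, with 15 of 23 higher and 1 lower. Among the lysyl oxidases, which cross-link collagen and elastin and were separated from this longer list, 4 of 5 tested rose. They were Lox by 1.90, Loxl3 by 1.49, Loxl1 by 1.21 and Loxl2 by 0.93. Lox stood at 5.50, 5.44 and 5.71 in the sham hearts, around the filter value, where the array may be measuring background. Plod2, the lysyl hydroxylase that favours mature cross-links, rose by 1.14, P3h2, a prolyl 3-hydroxylase, by 1.34 and Pcolce, an enhancer of procollagen trimming, by 1.07. The 1 enzyme-complex gene that fell was P3h4, a partner in lysine hydroxylation (-0.63, SE 0.06).

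Proteoglycans rose in 9 of 11 tested members, with none lower and the highest median of the matrix lists (0.94). Fmod, fibromodulin, which binds collagen fibrils, rose from 5.78, 5.72 and 5.89 to 7.99, 7.69 and 7.78 (difference 2.02, SE 0.16). Vcan, the large proteoglycan versican, rose by 1.75, Aspn by 1.31 and Lum by 1.29. Bgn, biglycan, rose from 11.38, 11.50 and 11.39 to 12.79, 12.74 and 12.70. Dcn, decorin, also a fibroblast marker, stood at 12.01, 12.13 and 11.99 in the sham hearts and rose by 0.44 (SE 0.06). Of 16 genes of elastic fibres and microfibrils, 10 rose, led by the microfibril-associated glycoproteins Mfap5 (2.73, SE 0.18) and Mfap4 (2.67, SE 0.13), Ltbp2 (1.54) and Eln, elastin (1.24). The 3 members that fell were Efemp1 (-0.69), Emilin2 (-0.60) and Ltbp1 (-0.34). Efemp1 stood at 5.39, 5.43 and 5.53 in the TAC hearts, below the filter value, where the array may be measuring background. It passed the filter through the sham hearts alone. By Emilin2 and Ltbp1, the list did not move as 1 block. Of 29 matricellular and adhesive glycoproteins 22 rose and none fell, Fn1, fibronectin, by 1.65 and Sparc, a collagen-binding protein, by 0.84.

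Matrix-degrading enzymes and their inhibitors rose side by side. Of 28 tested, 17 rose and 2 fell. Mmp2, a gelatinase, rose from 8.98, 8.93 and 8.75 to 10.46, 10.18 and 10.32 (difference 1.43, SE 0.08), and Mmp14, its activator at the cell surface, by 0.80. The inhibitor Timp4, which the heart makes in quantity, was 1 of the 2 that fell (difference -1.07, SE 0.25). That is the opposite direction to Timp1. The other was the proteoglycan-cleaving Adamts5 (-0.61, SE 0.11). Among markers of fibroblasts 11 of 20 rose and Scara5 fell (-0.27, a call lost in 4 of 6 fits that each left out 1 heart). Among those that rose were Meox1, a homeobox factor of activated fibroblasts (1.86, SE 0.09), Pi16, a marker of adventitial fibroblasts (1.69, SE 0.09), and Dcn. The 8 that did not pass the test were Pdgfra (0.13), Tcf21 (0.03), Ddr2 (0.17), Gsn (0.05), Dpt (0.29), Cd248 (0.22), Acta2 (-0.16) and Dpep1 (-0.39). The mean value of the fibroblast markers was 8.08 to 8.12 in the sham hearts and 8.83 to 9.02 in the TAC hearts. The markers include Col1a1, Postn, Cilp, Comp, Dcn, Mmp2 and Pi16, which are also in the matrix lists, so this mean is not a separate measure. The part of fibroblast number in the matrix results was not tested.

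Signals to the matrix rose with it. Of 27 genes of the transforming growth factor beta superfamily, 14 rose and 3 fell. The ligand Tgfb2 rose most, from 6.32, 6.26 and 6.21 to 8.34, 8.13 and 8.08 (difference 1.92, SE 0.09), Tgfb3 by 1.25 and Tgfb1 by 0.73. The type 1 receptor Tgfbr1 rose by 1.11 and the feedback inhibitor Smad7 by 0.61. Fstl1 and Fstl3, follistatin-like binding proteins, rose by 1.79 (SE 0.06) and 1.36 (SE 0.15). The co-receptor Tgfbr3, betaglycan, fell by 0.75, and Inha (-0.35) and Acvr2a (-0.25, lost in 5 of 6 such fits) completed the falls. Of 21 Wnt pathway genes tested the 5 that rose were mostly secreted antagonists: Sfrp1 (1.84, SE 0.22), Frzb (1.75, SE 0.07), Sfrp2 (1.68, SE 0.18) and Dkk3 (0.46, SE 0.09). The receptor Fzd2 was the fifth (0.28, lost in 5 of 6 such fits). The sham hearts gave 5.62, 5.60 and 5.55 for Fzd2, all below the filter value, where the array may be measuring background. Fzd2 passed the filter through hearts other than the sham hearts. Frzb stood at 5.70, 5.61 and 5.78 in the sham hearts and at 7.40, 7.46 and 7.47 in the TAC hearts, which is one of the tightest separations of the data. Its sham values also lie around the filter value, so their closeness may be that of background.

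Of 26 vasoactive genes 8 rose and 5 fell. Ace, the angiotensin-converting enzyme, rose from 8.14, 8.36 and 8.50 to 9.87, 10.11 and 9.98 (difference 1.66, SE 0.10), while Agtr1a, the main angiotensin receptor of the mouse heart, fell by 0.53 (SE 0.09). Edn3, an endothelin, rose by 1.25 (SE 0.19). Nppa rose from 10.95, 11.15 and 11.25 to 13.24, 13.08 and 13.15, which took it from rank 210 to 284 of all named genes to rank 12 to 18. Nppa is also an atrial marker. Its rise was still called with the mean of the atrial genes averaged above as a covariate, a fit added after the data had been seen. Over all settings tried the difference was 1.95 to 2.12. How large a part atrial content had in it was not tested. Nppb rose by 1.21 (SE 0.12). Corin, the protease that activates both natriuretic peptides, fell by 0.54 (SE 0.09), and Mme, the peptidase neprilysin that breaks them down, fell by 0.42 (SE 0.07). The alpha-1 adrenergic receptor Adra1b fell by 0.98 (SE 0.07) and the cardiac adenylyl cyclase Adcy6 by 0.58 (SE 0.11). Among 15 phosphodiesterases, 5 fell, Pde4a (-0.70), Pde2a (-0.59), Pde3a (-0.51), Pde4d (-0.47) and Pde7a (-0.38, lost in 5 of 6 such fits), and 2 rose, Pde8a (0.91, SE 0.09) and Pde7b (0.41, lost in 1 of 6 such fits). Hbegf, an EGF receptor ligand, led the growth factors, from 7.26, 7.55 and 7.59 to 9.64, 9.37 and 9.24, while Fgf16, a growth factor of heart muscle, fell by 0.89 (SE 0.15). Of that list 13 of 37 rose and 9 fell, but between 3 and 5 falls were left without sham heart 1, 2 or 3 or TAC heart 2 or 3, and 5 after cyclic loess scaling.

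Contractile genes of the sarcomere moved in both directions. Of 28 myosin, actin, troponin and light chain genes, 5 rose and 4 fell (32.1% called, beside 26.1% of all genes tested), and the median was -0.02. Acta1, skeletal actin, which the fetal heart uses, stood at 10.79, 11.52 and 11.72 in the sham hearts and at 12.56, 12.96 and 13.08 in the TAC hearts (difference 1.52, SE 0.22, adjusted p = 0.0011). Sham heart 1 and TAC heart 1 were the lowest of their groups, and the groups did not overlap. Tpm2, a tropomyosin, rose by 1.05 (SE 0.10), Mybpc2, fast myosin-binding protein C, by 0.62 (SE 0.12) and Mybpc3, the cardiac form, by 0.28 (SE 0.09, lost in 4 of 6 such fits). Besides myosin genes described below, Myl3 (-0.22, SE 0.05) and Mylk4 (-0.66, lost in 2 of 6 such fits) fell. The falls dropped from 4 to 2 without sham heart 2 or sham heart 3.

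At the Z-disc, the anchor of the thin filaments, 21 of 30 genes of Z-disc, LIM-domain and stretch-responsive proteins rose and 1 fell, with a median of 0.59, and the rises numbered 19 to 21 without each heart in turn. Fhl1, a LIM-domain protein that takes part in stretch sensing, rose from 9.46, 9.52 and 9.47 to 10.90, 10.98 and 11.03 (difference 1.49, SE 0.06, adjusted p = 2.41e-06). Xirp2, which binds actin at the intercalated disc, rose from 10.85, 11.08 and 11.01 to 12.37, 12.31 and 12.23, and its relative Xirp1 by 1.13. Enah, an actin regulator, rose by 1.25 (SE 0.08), Pdlim3 by 1.19, Actn1, a non-muscle alpha-actinin, by 1.13, and Flnc, filamin C, by 0.96. Ankrd1, the cardiac ankyrin repeat protein, went from ranks 24 to 51 in the sham hearts to rank 5 on each TAC array, so that its value of 13.59 was the same in all 3 TAC hearts (difference 0.86, SE 0.10). Rcan1, a target and inhibitor of calcineurin, rose by 1.00 (SE 0.14). The member that fell was Cavin4, a caveolar coat protein of muscle (-0.29, SE 0.07).

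Cytoskeletal genes rose widely. Of 27 tubulin, actin regulator and intermediate filament genes 19 rose and 1 fell. Tubb2a rose by 0.92 (SE 0.08), Tubb5 by 0.73 (SE 0.08), Tubb6 by 0.67 (SE 0.14) and Tuba1a by 0.58 (SE 0.10), and Map1b, a microtubule-associated protein, by 1.04 (SE 0.10). Tuba4a, another alpha-tubulin, fell instead, from 11.76, 11.69 and 11.85 to 11.25, 11.26 and 11.22 (difference -0.52, SE 0.05). Des, desmin, the intermediate filament of muscle, rose by 0.34 (SE 0.04).

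**Figure D3:**
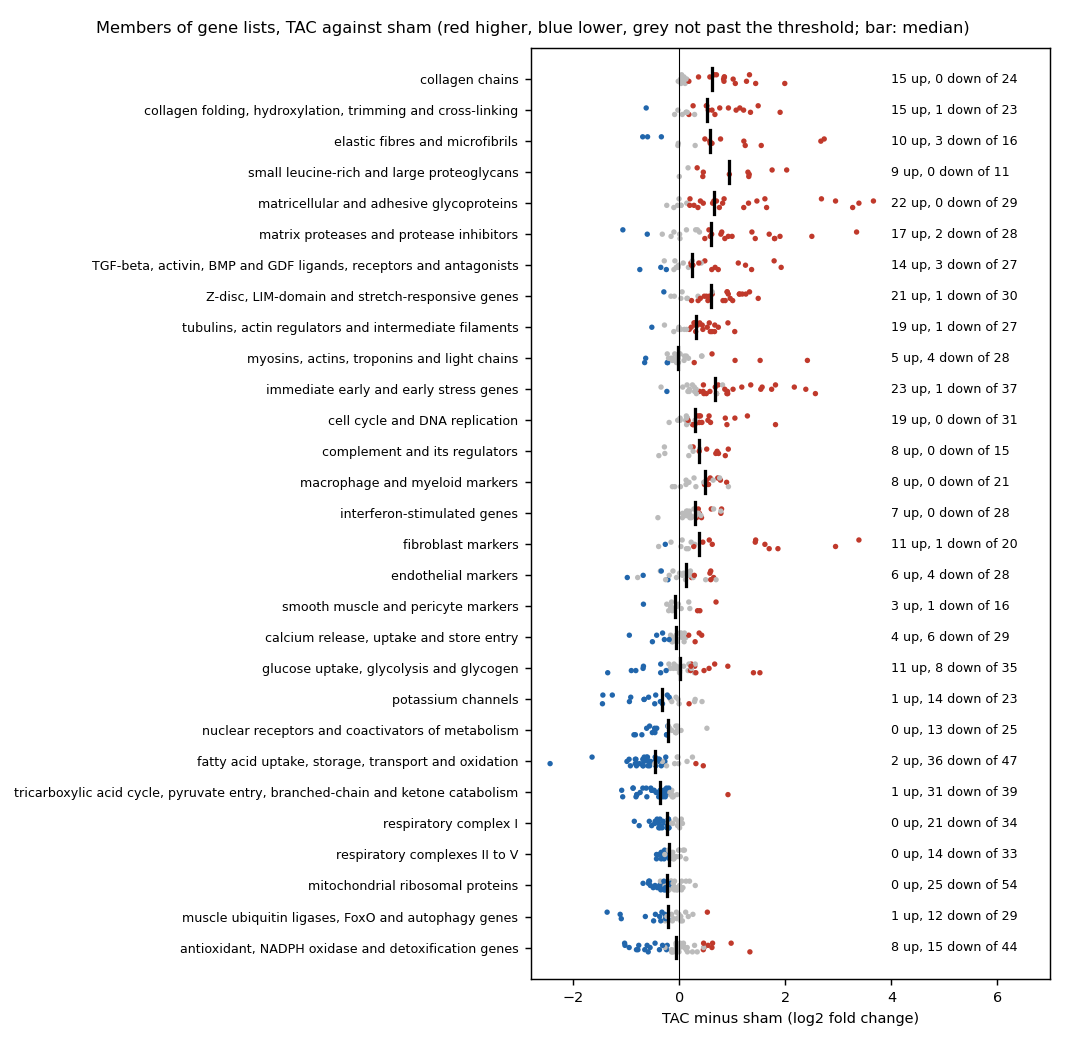
Differences TAC minus sham (log2, horizontal axis) of the tested members of 29 gene lists, 1 point per gene, red where it rose, blue where it fell and grey where it did not pass the test, with a black bar at the list's median and the counts at the right. Matrix, Z-disc and cytoskeleton lists lie to the right of 0, fatty acid, branched-chain and tricarboxylic acid cycle genes to the left, and the contractile, glucose and calcium lists straddle 0.

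The transcripts of the cardiac myosin loci did not move together. In mice, Myh6 encodes the fast alpha heavy chain of the adult ventricle and Myh7 the slow beta chain of the fetal ventricle, and the microRNA gene Mir208a lies within Myh6. Mhrt is a long noncoding RNA transcribed from the opposite strand of the Myh7 locus. These transcripts were set side by side after their values had been seen. Myh7 rose from 8.93, 8.96 and 9.39 to 11.43, 11.70 and 11.40 (difference 2.42, SE 0.18). Mhrt fell from 10.75, 10.25 and 10.41 to 9.48, 9.28 and 9.20 (difference -1.15, SE 0.13, adjusted p = 0.00026). Its sham and TAC hearts did not overlap, and it was called under every setting tried. Myh6 stood at 13.09, 13.28 and 13.17 against 13.03, 12.86 and 12.96, near the top of the scale, where it ranked 12 to 17 in the sham hearts and 20 to 29 in the TAC hearts. Its fall of 0.23 (SE 0.06, adjusted p = 0.0271) was lost in 4 of the 6 fits that each left out 1 heart, with adjusted p-values up to 0.095, and after cyclic loess scaling (adjusted p = 0.103). Myh7b, a further myosin gene, fell by 0.64 (SE 0.11). Whether the Mhrt and Myh7 probes share any sequence, and which part of each transcript they cover, was not analysed here.

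Mir208a stood at 6.18, 5.81 and 6.38 in the sham hearts and at 5.64, 5.56 and 5.67 in the TAC hearts (difference -0.50, SE 0.12, adjusted p = 0.0137). The groups did not overlap, but the TAC values lie at the filter value of 5.66, where the array may be measuring background. In the fits that left out 1 heart its adjusted p ran from 0.000804 to 0.0499. Of 84 microRNA genes tested none rose and 4 fell, Mir208a, Mir145a, Mir181c and Mir707. Such probe sets can measure the precursor or its host transcript. Neither mature microRNA was measured here. The 2 that the gene encodes are printed to identify it, from RefSeq (GRCm38.p6, minus strand, chr14:54949072-54949093 and chr14:54949107-54949128), 5′ to 3′ with the seed, bases 2 to 8, in capitals.
mmu-miR-208a-3p: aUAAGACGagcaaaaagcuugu
mmu-miR-208a-5p: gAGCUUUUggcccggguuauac

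Many metabolic genes fell. Of 297 tested genes in the metabolic lists, which take in fuel, respiratory chain, redox and solute transport genes, 152 fell and 33 rose, with a median of -0.23. Fatty acid genes fell in 36 of 47 members tested and rose in 2, with a median of -0.46 that was much the same in each TAC heart (-0.49, -0.45 and -0.48). Ces1d, a carboxylesterase that takes part in triglyceride breakdown, fell most of all genes, from 8.74, 8.60 and 8.16 to 5.75, 5.85 and 6.58 (difference -2.44, SE 0.25, adjusted p = 0.000191). Ucp3, a mitochondrial carrier induced by fatty acids, fell from 8.05, 8.34 and 7.32 to 5.92, 6.54 and 6.31. In both genes sham heart 3 was the lowest of its group. Slc27a1, a fatty acid transporter of the cell membrane, fell by 0.95 (SE 0.06), the carnitine palmitoyltransferase Cpt2 by 0.68 (SE 0.09), the thiolase Acaa2 by 0.99 (SE 0.09) and Acadvl, the very-long-chain acyl-CoA dehydrogenase, by 0.56 (SE 0.08). Plin5, which coats lipid droplets next to mitochondria, fell by 0.67 (SE 0.10). The 2 that rose were the acyl-CoA synthetases Acsl4 (0.45) and Acsl5 (0.31), both lost in 4 of 6 such fits.

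Regulators of these genes fell as well. None of 25 nuclear receptors and coactivators of metabolism rose and 13 fell. Ppara, the receptor that drives fatty acid oxidation genes, fell by 0.71 (SE 0.14), its partner receptors Rxra by 0.62 (SE 0.06) and Rxrg by 0.86 (SE 0.09), and Esrrg, an estrogen-related receptor, by 0.47 (SE 0.09). Thra, the thyroid hormone receptor, fell by 0.47 (SE 0.11). Perm1, a muscle coregulator of these receptors, stood at 9.99, 9.98 and 9.99 against 9.51, 9.49 and 9.57 and fell by 0.46 (SE 0.04). Ppargc1a (-0.21) and Esrra (-0.07), 2 regulators often named for this pathway, did not pass the test.

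Genes for the breakdown of branched-chain amino acids fell almost throughout. Of 18 genes for the catabolism of valine, leucine and isoleucine, 17 fell and none rose, with a median of -0.66 over the 3 TAC hearts (-0.69, -0.59 and -0.66). This set was separated from a longer list after its values had been seen. Ppm1k, the phosphatase that activates the branched-chain ketoacid dehydrogenase, fell from 8.71, 8.43 and 8.34 to 7.36, 7.47 and 7.39 (difference -1.09, SE 0.10). The subunits of that dehydrogenase, Bckdhb (-1.07), Dbt (-0.80) and Bckdha (-0.69), fell too, as did the later enzymes Mmut (-0.87), Mccc1 (-0.82) and Mccc2 (-0.80). The gene left was Hibch (-0.13). Of 13 tricarboxylic acid cycle genes, separated from the same longer list, 9 fell, with a smaller median of -0.27. In the longer list, Bdh1, the first enzyme of ketone body use, was the 1 gene of 39 that rose, from 8.91, 9.29 and 9.04 to 9.84, 10.21 and 9.92 (difference 0.92, SE 0.13).

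Respiratory chain genes fell by less and less firmly. Of 34 complex I genes 21 fell and none rose (median -0.23). The count was 11 without sham heart 1 or TAC heart 2, 12 without TAC heart 3, and 11 after cyclic loess scaling. Ndufs6, an accessory subunit, fell by 0.85 (SE 0.18) and Ndufa9 by 0.57 (SE 0.08). Of 33 genes of complexes II to V 14 fell (median -0.20), or 9 without TAC heart 3 and 9 after cyclic loess scaling, with Sdha, a subunit of succinate dehydrogenase, falling by 0.43 (SE 0.07). Mitochondrial ribosomal protein genes fell in 25 of 54 (16 after cyclic loess scaling), led by Mrps35 (-0.69, SE 0.08). Of 21 cytosolic ribosomal protein genes 1 was called. It was Rpl3l, the form of ribosomal protein L3 specific to striated muscle, which fell from 8.96, 8.86 and 8.98 to 7.33, 7.84 and 7.70 (difference -1.31, SE 0.14).

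Glucose genes moved in both directions, 11 up and 8 down of 35, with a median of 0.01. Slc2a1, the basal glucose transporter, rose from 8.71, 8.57 and 8.65 to 9.95, 10.43 and 10.10 (difference 1.52, SE 0.11), and Slc2a4, the insulin-responsive transporter, fell from 11.52, 11.26 and 11.32 to 10.57, 10.81 and 10.66 (-0.69, SE 0.08). Tbc1d4, a Rab GTPase-activating protein that holds that transporter inside the cell until insulin signalling relieves the hold, fell by 1.35 (SE 0.15). Pfkp, the platelet phosphofructokinase, rose by 1.40 (SE 0.10) and Hk1, a hexokinase, by 0.46 (SE 0.10). Pfkfb2, the cardiac form of the enzyme that makes the activator of phosphofructokinase, fell by 0.82 (SE 0.11). The rises numbered 6 without sham heart 1 or sham heart 2 and 7 without sham heart 3 or TAC heart 3. In synthesis of NAD, Nmrk2, the muscle nicotinamide riboside kinase, rose from 6.08, 5.92 and 6.18 to 8.44, 7.77 and 7.45 (difference 1.82, SE 0.31), and Nampt, the rate-limiting enzyme of the salvage route, fell by 0.71 (SE 0.09). Of that list, which also holds creatine and adenylate kinases, 4 of 18 rose and 5 fell, and 3 falls were left without sham heart 1 or 3 or TAC heart 1 or 2. Ckb, the brain creatine kinase, Gatm and Nnmt were the other rises (0.66, 0.45 and 0.30, the last lost in 2 of 6 such fits).

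Other large falls were of mixed function. Lgals4, a galectin, fell from 7.67, 7.45 and 7.42 to 5.89, 6.02 and 6.03 (difference -1.53, SE 0.07, adjusted p = 3.72e-06). Dglucy, a D-glutamate cyclase of mitochondria, fell from 8.04, 7.90 and 7.73 to 6.70, 6.60 and 6.58 (difference -1.27, SE 0.08). Both were even within the groups. Stard10, a phospholipid transfer protein and an atrial marker here, fell by 1.49 (SE 0.22), with TAC hearts at 6.57, 6.56 and 7.38 and heart 3 again the highest. Ogdhl, a form of the oxoglutarate dehydrogenase, fell by 1.17 (SE 0.08). Aqp7, the channel by which heart muscle takes up glycerol, fell by 1.43 (SE 0.22), while Slc7a5, a transporter of large neutral amino acids, rose by 0.97 (SE 0.13). Of the 22 water channel and solute carrier genes tested 7 rose and 9 fell.

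Potassium channels fell in 14 of 23 members tested and rose in 1, Kcnn3 (0.18, lost in 2 of 6 such fits). Kcnj2, which carries the resting current of ventricular muscle, fell from 8.24, 7.88 and 7.70 to 6.50, 6.60 and 6.38 (difference -1.44, SE 0.16). Kcnj3 and Kcnj5, the atrial acetylcholine-gated pair, fell by 1.45 (SE 0.13) and 0.94 (SE 0.13). The transient outward current lost transcript of its pore subunits Kcnd2 (-1.27, SE 0.12) and Kcnd3 (-0.47, SE 0.07) and of its accessory subunit Kcnip2 (-0.92, SE 0.13). Kcnj11, the pore of the ATP-sensitive channel, fell by 0.58 (SE 0.06) and its regulatory partner Abcc9 by 0.68 (SE 0.09). Kcnj3 and Kcnj5 are also atrial markers. Kcnj3 stood at 7.98 in TAC heart 3, which had the most atrial transcript, and at 7.83 and 7.96 in TAC hearts 1 and 2. Both falls were still called with the mean of the atrial genes averaged above as a covariate. For Kcnj3 the difference was -1.61 to -1.37 over all settings tried. How large a part atrial content had in these falls was not tested.

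Calcium genes were mixed: 4 of 29 rose, Sri (0.42), Casq2 (0.37), Atp2b4 (0.30) and Stim2 (0.18, lost in 4 of 6 such fits), and 6 fell. Hrc, the histidine-rich calcium-binding protein of the sarcoplasmic reticulum, fell most, from 9.72, 9.55 and 9.38 to 8.31, 8.66 and 8.84 (difference -0.94, SE 0.15). Atp2a2, the calcium pump of that store, and Pln, its inhibitor, each stood 0.16 lower (SE 0.05) and did not pass the test (adjusted p = 0.0535 and 0.057), at ranks 2 to 8 of all genes on every array. Slc8a1, the sodium-calcium exchanger, rose by 0.49 (SE 0.08). Of 18 other channel genes, it and Scn7a (0.46, lost in 2 of 6 such fits) rose and 6 fell, among them Scn4b, a sodium channel beta subunit (-0.92, SE 0.14).

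In the handling of reactive molecules 8 of 44 genes rose and 15 fell. Gpx3, the secreted glutathione peroxidase, rose from 10.25, 10.27 and 10.05 to 11.84, 11.34 and 11.38 (difference 1.33, SE 0.13). Gpx1 rose by 0.63 and Nox4, a hydrogen peroxide-producing oxidase, by 0.98 (SE 0.19). The sham hearts gave 5.53, 5.46 and 5.65 for Nox4, all below the filter value, where the array may be measuring background. Nox4 passed the filter through hearts other than the sham hearts. Glutathione transferases fell in 6 of 10, a set separated after its values were seen: Gstk1 by 1.03 (SE 0.09) and Gstm7 by 0.95 (SE 0.10). Aldh2, the mitochondrial aldehyde dehydrogenase, fell by 0.59 (SE 0.09). In protein quality control, genes of endoplasmic reticulum stress and folding moved both ways, with 11 falls and 5 rises among 34 genes and a median of -0.07. The falls included the chaperones Dnajb9 (-0.68, SE 0.10), Hsp90b1 (-0.54, SE 0.10) and Hspa5, the central chaperone BiP (-0.53, SE 0.09). The falls numbered 4 without TAC heart 2 and 6 or 7 without any of sham hearts 1 to 3 or TAC heart 1 and after cyclic loess scaling. The 5 rises were Ero1a (0.95), Ppp1r15a (0.63), Edem1 (0.57), Atf4 (0.47) and P4hb (0.35). Among muscle ubiquitin ligase, FoxO and autophagy genes 12 of 29 fell, with the ankyrin repeat and SOCS box genes Asb15 (-1.36, SE 0.14) and Asb14 (-1.12, SE 0.13) first, and the mitophagy receptor Bnip3 rose (0.53, SE 0.10).

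Of 75 tested genes in the complement, chemokine and cytokine, and interferon lists, 24 rose, 3 fell and 48 did not pass the test. Their median change was largest in TAC heart 1 (0.38, against 0.15 and 0.23 in hearts 2 and 3). Of 32 chemokine and cytokine genes 9 rose and 3 fell. Of 15 complement genes 8 rose and none fell, Serping1, the inhibitor of the first component, by 0.92 (SE 0.10) and C1qa by 0.87 (SE 0.12). Of 21 macrophage and myeloid markers 8 rose and none fell, among them Fcer1g, an immunoglobulin receptor subunit of myeloid cells, from 7.74, 7.90 and 8.47 to 9.09, 8.91 and 8.78 (difference 0.89, SE 0.17). Adgre1, a surface receptor of mature macrophages, rose by 0.51 (SE 0.10), and the mean of the macrophage markers was 6.98 to 7.14 in the sham hearts and 7.37 to 7.66 in the TAC hearts. Cd163 (-0.13) and Lyve1 (-0.09), markers of resident macrophages, did not pass the test. None of the 4 lymphocyte markers tested was called, with values of 0.22 for Cd3e and 0.08 for Cd4. Of 31 genes of the cell cycle 19 rose and none fell, Ccnd2, a D-type cyclin, by 1.05 (SE 0.12), Ube2c by 1.28 (SE 0.22) and Ccna2 by 0.90 (SE 0.19). That count was 11 without sham heart 1 and 12 without sham heart 2. Endothelial markers showed little shift as a list (6 up and 4 down of 28, median 0.13). The rises were 2 or 3 without sham heart 1 or 3 or TAC heart 2 or 3, and 10 without TAC heart 1. Vcam1 and Icam1, adhesion molecules, rose by 0.58 (SE 0.08) and 0.59 (SE 0.12). Prox1, a factor of lymphatic endothelium that heart muscle also expresses, fell by 0.98 (SE 0.17), Kdr, a VEGF receptor, by 0.68 (lost in 1 of 6 such fits), Cd36 by 0.34 and Tie1 by 0.22 (lost in 1 of 6 such fits).

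Of 30 transcription factors of the heart, 4 rose and 6 fell (33.3% called), and the median was -0.01. Tbx5, a factor of atrial and left ventricular identity, fell from 8.27, 8.14 and 8.04 to 7.07, 7.25 and 7.27 (difference -0.95, SE 0.08), Mrtfb by 0.46 (SE 0.06) and Gata6 by 0.37 (SE 0.08). Meox1, Runx1 (0.98, SE 0.09), Wwtr1 (0.42) and Tbx20 (0.40) rose. Without TAC heart 1 the rises were 7, and without TAC heart 3 the falls were 3. Hdac4 itself stood at 7.08, 7.12 and 7.19 against 6.93, 7.08 and 6.90 and did not pass the test (difference -0.16, SE 0.06, adjusted p = 0.1).

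The TAC hearts were uneven in stimulus-induced genes. Of 37 immediate early and early stress genes, which respond to stimuli within minutes to hours, 23 rose and Gadd45a fell (-0.24, lost in 3 of 6 such fits). The median change of the list was 0.31 in TAC heart 1, 0.79 in heart 2 and 0.69 in heart 3. The nuclear receptor Nr4a1 stood at 6.64, 7.55 and 6.98 in the sham hearts and at 7.66, 10.56 and 10.64 in the TAC hearts, so that heart 1 was barely above the highest sham heart and hearts 2 and 3 were far above it. Its rise of 2.57 (SE 0.68, adjusted p = 0.022) was lost in 4 of 6 such fits. Egr2, an early growth response factor, gave 6.57, 7.85 and 9.39 against 5.72, 5.87 and 5.72, and its rise was lost in 1 of 6 such fits. Atf3, a stress-induced repressor, was more even, with 8.03, 8.98 and 8.76 against 6.15, 6.05 and 6.41 (difference 2.38, SE 0.24), and so was Btg2, an inhibitor of growth (8.40, 8.64 and 8.63 against 7.17, 7.12 and 7.34). The count of rises in the list was 29 without TAC heart 1, 14 without TAC heart 2 or TAC heart 3, and 13 without sham heart 1. With TAC heart 1 as the only TAC heart it was 11. Clock genes were called in 2 cases higher (Bhlhe40, 1.12, and Bhlhe41, 0.52) and 2 lower (Hlf, -0.78, and Nr1d2, -0.75) of 17. Bhlhe41 was lost in 2 of 6 such fits and Nr1d2 in 4 of 6. Without TAC heart 1 the calls were 5 higher and 7 lower. Other such fits gave as few as 1 higher (without sham heart 3) or 1 lower (without sham heart 1). No source used here gives the time of day at which hearts were taken.

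Some of the 12 genes with the largest spread among the TAC hearts are described next. They were chosen for that spread, so that they differ among these hearts is no separate result. Ddit4, induced by stress and low oxygen, stood at 6.49, 9.84 and 9.91 in the TAC hearts against 6.59, 6.86 and 7.69 in the sham hearts (difference 1.70, SE 0.78, adjusted p = 0.149). Errfi1, a feedback inhibitor of the EGF receptor, gave 9.05, 11.64 and 12.13 against 9.12, 9.07 and 9.41, and Depp1 6.85, 9.14 and 9.57 against 7.26, 7.58 and 7.78. None of the 3 passed the test, and in each TAC heart 1 lay below all sham hearts, while hearts 2 and 3 lay above all of them. In Stc1, a secreted glycoprotein, and Apold1, an endothelial early response gene, TAC heart 1 was also the lowest TAC heart. Both passed the test (1.90 and 2.00), and the Stc1 call was lost in 2 of 6 such fits. Apold1 stood at 7.25, 9.68 and 8.90 against 6.53, 6.66 and 6.66, so its TAC heart 1 lay above all sham hearts. Hypoxia-responsive genes had median changes of 0.08, 0.32 and 0.32, with 8 of 22 called higher and 2 lower (Egln1 and Vldlr). The rises were 5 without sham heart 1 and 11 without TAC heart 1, and the falls stayed at 2 without each heart in turn. The HDAC4-NT hearts lay near the sham hearts for these genes (median changes of the early gene list -0.03, -0.08 and 0.06), and the difference between both TAC groups passed the test for 32 genes of all tested, or 0.254%.

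TAC heart 1 was in turn the highest in immune genes. Interferon-stimulated genes had median changes of 0.48, 0.05 and 0.18 in TAC hearts 1, 2 and 3, and macrophage markers 0.66, 0.22 and 0.34. Igtp, an interferon-induced GTPase, stood at 8.50 in TAC heart 1 and at 6.00 and 6.47 in hearts 2 and 3, against 6.19, 6.13 and 6.30 in the sham hearts. Of the interferon list 7 of 28 were called higher, and 17 with TAC heart 1 as the only TAC heart. The numbers that open the sample codes were 12 for all sham hearts, 8 for TAC heart 1 and 9 for TAC hearts 2 and 3, and no source used here says what they stand for. Their part in the split was not tested. No number spans both groups, so what the numbers mark cannot be told apart from surgery in the comparison with sham. The HDAC4-NT hearts had interferon medians of 0.44, 0.38 and 0.39.

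**Figure D4:**
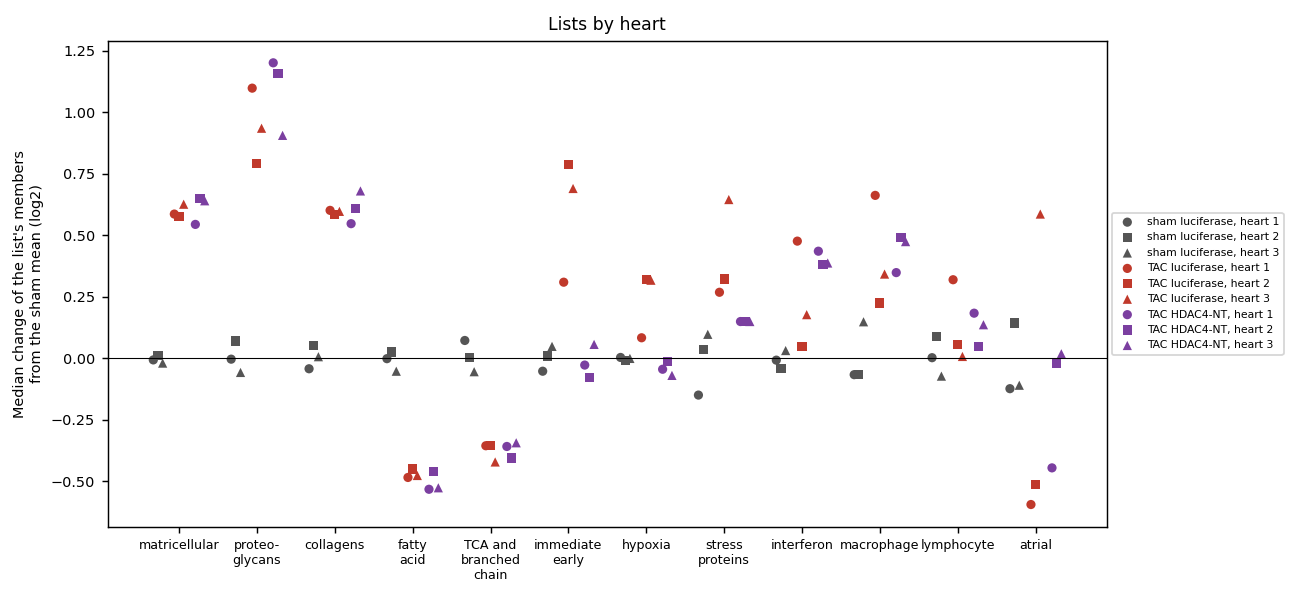
Median change from the sham mean (log2, vertical axis) of the tested members of 12 gene lists in each of the 9 hearts; colours mark the groups and symbols the heart number. TAC luciferase hearts coincide for matricellular genes, collagens and fatty acid genes, and split for early genes (0.31 in heart 1 against 0.79 and 0.69), interferon genes (0.48 against 0.05 and 0.18) and atrial markers (0.59 in heart 3 against -0.60 and -0.51).

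Atrial genes divided the hearts along another line. Myl7, an atrial light chain, stood at 6.26, 7.74 and 6.39 in the sham hearts and at 5.48, 5.73 and 8.56 in the TAC hearts, and Myl4, another, at 8.38, 9.96 and 8.31 against 7.54, 8.23 and 10.48. Sham heart 2 and TAC heart 3 were high for both, and the difference between groups changed sign when 1 of several hearts was left out. With the mean of 4 atrial genes as a covariate, a setting added after the data had been seen, 3100 genes were called. Agt, angiotensinogen, was high in TAC heart 2 alone (5.71, 8.10 and 6.58 against 6.14, 5.96 and 6.28). Sham heart 3 stood out for Cdkn1a, the cell cycle inhibitor p21 (8.33, 9.26 and 10.23 against 10.06, 11.56 and 11.64), and for the metallothionein Mt2 (10.68, 11.06 and 12.51 against 12.15, 13.12 and 13.05). Both were called (1.81 and 1.36), both overlapped between groups, and both calls were lost in 4 of 6 such fits.

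**Figure D5:**
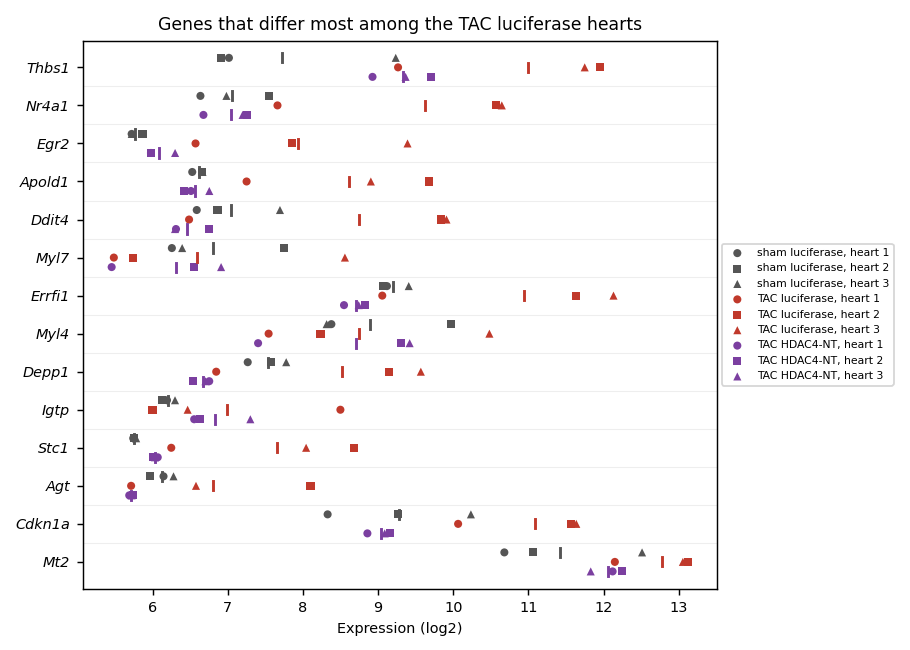
Expression (log2, horizontal axis) of the 12 genes with the largest spread among the TAC luciferase hearts, with Cdkn1a and Mt2 below, 1 symbol per heart and a bar at each group's mean. In 11 of the first 12 genes TAC heart 1 lies below TAC hearts 2 and 3, and Igtp, in which it lies above them, is the exception.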

How the data were processed

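RNA of 9 whole mouse hearts was measured on Affymetrix arrays, 1 per animal, after Trizol extraction and labelling of cRNA with biotin, per the labels. The deposited values are log2 expression, normalised by the authors with RMA per the submitters' processing notes (version not given in the sources used here). Sorted values were identical on all arrays. The table held 21225 probe sets. Of these 20239 had 1 gene symbol, each a different gene, and 986 were not listed in the annotation and were left out.

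A gene entered the tests when 3 or more of the 9 arrays exceeded 5.66, the 40th percentile over the whole table. This kept 12597 genes. Group means were fitted with limma 3.58.1 (R 4.3.3; lmFit, contrasts.fit, eBayes) over all 9 arrays, with 6 residual degrees of freedom, and p-values were adjusted by the Benjamini-Hochberg method over all genes tested. The contrasts share arrays, so none was set against another. Lists were described by counts and medians without a set test. Figures were drawn with matplotlib 3.10.9.

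Members and lists were chosen with earlier results of these data known. Genes were named by rule: the 20 largest rises and 20 largest falls without overlap, up to 4 called members of each of 51 lists (2 where none was called), the 12 and 6 genes of largest spread in TAC and sham hearts, and a few marker genes. That gave 216. A further 104 called genes, and members named with a difference that did not pass the test, were chosen after their values were seen. Promoter and microRNA sequences are from RefSeq, GRCm38.p6. Alternatives were cyclic loess scaling, array weights, a prior that is trended and robust, no filter, and a filter at the 60th percentile. Others were the 6 arrays alone, the replicate number or the sample code as a block, other thresholds, and leaving out each heart. As no code number spans both groups, that block cannot separate the code from surgery.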

Additional observations from a re-analysis of the deposited data

Results flagged for a closer look

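For 9 of the 216 genes named by rule, the 2 TAC groups differed past the threshold in limma. The groups are hearts with HDAC4-NT and hearts with luciferase, with 3 hearts a group. Over all genes tested it was 32 of 12597, or 0.254%. These differences share the TAC luciferase hearts with the comparison against sham, by which many of the genes were named. Their number and their direction relative to sham are therefore no separate result. Among genes that rose with TAC in the luciferase hearts, the HDAC4-NT hearts were lower for Atf3 (-2.52), Btg2 (-1.24), Gadd45g (-1.05), Slc2a1 (-0.99) and Ero1a (-0.94). Atf3 stood at 5.87, 5.93 and 6.41 in the HDAC4-NT hearts, against 8.03, 8.98 and 8.76 with luciferase (SE 0.23, adjusted p = 0.00667). Gadd45g, a stress-induced growth arrest gene, had risen with TAC by 1.18 (SE 0.16) over sham. Slc2a1 stood at 9.16, 9.22 and 9.13, between the sham and the TAC luciferase hearts. Among genes that fell with TAC, the HDAC4-NT hearts were higher for Lrrc14b (0.56), Mrtfb (0.43) and the calcium channel subunit Orai3 (0.35). Against sham, Lrrc14b and Orai3 had fallen with TAC by 1.32 (SE 0.06) and 0.51 (SE 0.05). Mrtfb stood at 8.12, 8.19 and 8.05 with HDAC4-NT, in the range of the sham hearts. Col8a1 differed the other way, being higher still with HDAC4-NT (0.49).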

How the results depend on the processing

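The number of genes called was 3283. It was 1748 (762 higher and 986 lower) at an adjusted p under 0.01, and 1926 (934 higher and 992 lower) with TAC heart 1 as the only TAC heart, a setting added after the data had been seen that assumes a lone heart to vary like the others. Leaving out each heart gave 2435 (without sham heart 1) to 3230 (without TAC heart 1), 1060 to 1519 higher and 1375 to 1711 lower. The other settings gave 2549 (the 6 arrays alone) to 4236 (adjusted p under 0.10). With the replicate number as a block 3062 genes were called. Deviations of sham and TAC hearts of the same number correlated at -0.04, -0.12 and 0.06, and those of unlike number at -0.185 to 0.221. No pairing by number was seen, but 3 hearts a group are too few to exclude it. Of the 200 genes named by rule and called, 172 were called in every setting at the same threshold and 187 without each heart in turn, and of 104 others named 68 and 86. Genes that turned direction were not called. Myl4 became 0.052 with array weights, 0.41 without sham heart 2, 0.47 without TAC heart 1 and 0.13 without TAC heart 2, and was -0.998 without TAC heart 3. Myl7 became 0.27, 0.35 and 0.22 without the first 3 of these hearts and was -1.19 without TAC heart 3. With TAC heart 1 alone Ddit4 became -0.56, Errfi1 -0.14, Depp1 -0.69 and Agt -0.41. The cause was not tested. Precision is bounded by 3 arrays a group, and genes near the filter value are measured close to background.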
